A study of Mus musculus with 7 samples.

Results

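The 46 genes described here are the mitosis and spindle genes of the mouse: the kinases and cyclins that start mitosis, the proteins that build the spindle and hold chromosomes to it, and the factors that end mitosis and split the cell. They are taken by name, whatever their values here, from a list drawn up with earlier results of these data known. All 46 were found among the 35715 gene names of the array, on 68 probes. 30 genes had 1 probe, 10 had 2 and 6 had 3. Whole liver was taken from 7 mice aged 4 weeks, and the RNA of each mouse was read on 1 array with 1 dye. The *Rbpj* +/+ group held 4 *AlfpCre*-negative mice (named Rbpj +/+_1155, then Rbpj +/+_1156, then Rbpj +/+_1024, and last Rbpj +/+_991, which is the order of their values in the text), and the *Rbpj* -/- group held 3 *AlfpCre*-positive mice (named Rbpj -/-_N3, then Rbpj -/-_N5, and last Rbpj -/-_2866, again in the order of their values), which the labels describe as cholestatic. Both groups were C57BL/6J and carried the floxed *Rbpj* allele. The *Alfp* promoter drives Cre in the embryonic liver epithelium, so that hepatocytes and bile duct cells carry the deletion while blood, vessel and mesenchymal cells keep the gene. RBPJ is the DNA-binding partner of Notch receptors, a pathway that guides the formation of bile ducts. The question of the comparison was how the damaged liver responds, including whether its cells divide.

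Most hepatocytes of an adult liver rest outside the cell cycle and can return to it after tissue loss, whereas the growing liver of a young mouse still holds dividing cells. Genes of mitosis are silent in resting cells and are transcribed together late in the cycle, when the repressor complex DREAM is exchanged for activating complexes with MYBL2 and FOXM1. Their messages are therefore widely used as a measure of how many cells of a tissue are dividing. In whole tissue, more dividing cells and more message per dividing cell cannot be told apart, and neither can fewer cells of a type and less RNA per cell.

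Values are normalized log2 intensities, in which 0 is the 75th percentile of the array. Levels of different probes cannot be set against each other. To be tested, a probe had to stand well above background on every array of 1 genotype or of both. Genes with several tested probes were read from the brightest one. A gene was called at a limma adjusted p below 0.1 (Benjamini-Hochberg, over 24536 probes). Between 41.1% and 64.9% of the probes were well above background per array, with the highest shares on arrays Rbpj +/+_1156 and Rbpj -/-_N3, whose dim probes were also the brightest: the median intensity was 18.7 and 29.6 there and between 4.99 and 7.75 on the others. *Rbpj* itself was lower in the *Rbpj* -/- livers on both of its probes, by 1.13 (adjusted p = 0.0115) and by 1.63 (adjusted p = 0.0722) on the log2 scale, and where these probes lie relative to the deleted part was not tested. The labels do not give the sex of the mice, and the Y-linked gene *Ddx3y* was well above background on 7 of 7 arrays. All arrays lay on 1 slide, with the *Rbpj* +/+ arrays in 1 row and the *Rbpj* -/- arrays in the other, so that slide row and genotype cannot be told apart. The labels name separate mice, so the p-values measure the spread between animals.

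Promoters of late cell cycle genes are known for a pair of short elements. The cell cycle gene homology region (CHR) binds the DREAM and MYBL2 complexes, and the CCAAT box binds the factor NF-Y. Both were searched as plain letters, TTTGAA for the CHR and CCAAT for the box, on both strands, in windows from 250 bases before to 50 bases after the start of each gene (RefSeq, GRCm38.p6). Of the 46 genes, 38 had a window. TTTGAA was found for 26 of these 38 genes (68.4%), against 20.2% of all 27025 genes with a window. CCAAT was found for 27 of 38 (71.1%), against 41.1% of all genes. Both were present in 1 window for 23 genes (60.5%), against 7.97% of all genes. The 8 genes with neither were *Birc5*, *Mad2l1*, *Melk*, *Mybl2*, *Nuf2*, *Nusap1*, *Plk4* and *Pttg1*.

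The 200 bases before the start of 4 genes are shown because they hold both elements in genes of unlike response. The 4 were picked with their values known. Capitals mark TTTGAA and CCAAT, or TTCAAA and ATTGG where the match lies on the other strand. *Cdk1*, *Top2a* and *Mki67* were called higher, while *Bub3* had the smallest difference and was not called.
Cdk1, chr10:69352913-69353112, minus strand: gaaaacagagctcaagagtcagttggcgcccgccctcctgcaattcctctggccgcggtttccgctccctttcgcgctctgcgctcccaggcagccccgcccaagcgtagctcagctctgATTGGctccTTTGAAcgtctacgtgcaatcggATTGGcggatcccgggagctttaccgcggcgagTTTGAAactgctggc
Top2a, chr11:99024190-99024389, minus strand: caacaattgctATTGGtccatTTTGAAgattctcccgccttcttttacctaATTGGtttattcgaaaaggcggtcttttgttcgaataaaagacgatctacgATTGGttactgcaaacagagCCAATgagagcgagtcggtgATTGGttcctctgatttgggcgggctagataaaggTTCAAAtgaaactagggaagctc
Mki67, chr7:135716380-135716579, minus strand: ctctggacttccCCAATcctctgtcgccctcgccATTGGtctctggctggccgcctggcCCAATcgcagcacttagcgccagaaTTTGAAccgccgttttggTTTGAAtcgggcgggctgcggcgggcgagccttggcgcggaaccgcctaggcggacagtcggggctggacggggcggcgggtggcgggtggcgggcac
Bub3, chr7:131560170-131560369, plus strand: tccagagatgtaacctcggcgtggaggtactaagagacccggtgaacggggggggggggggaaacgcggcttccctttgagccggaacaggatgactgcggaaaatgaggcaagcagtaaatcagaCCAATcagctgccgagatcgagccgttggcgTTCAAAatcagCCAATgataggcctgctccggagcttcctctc

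The *Cdk1* stretch holds TTTGAA 71 and 15 bases before the start and CCAAT 80 and 48 bases before it. In *Top2a*, TTTGAA lies 179 and 23 bases before the start among 5 CCAAT boxes. *Mki67* holds TTTGAA at 116 and 98 bases, and 3 CCAAT boxes at 188, 166 and 141 bases. *Bub3* has 2 windows, and in the one shown TTTGAA lies at 43 bases between CCAAT boxes at 74 and 32. A match is a description of the letters and not evidence that a factor binds there.

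Of the 46 genes, 41 were tested, 36 were called higher in *Rbpj* -/- liver, none was called lower and 5 were tested and not called. All 41 log2 differences were above 0, so that no gene would count as lower at any p. Among all 18760 genes tested, 14.6% were called higher. A gene that was well above background in *Rbpj* -/- liver only had to be higher there to be tested at all, and 14 of the 41 entered that way. The count is therefore read over the 27 genes that were well above background on all 7 arrays. Of these 27, 23 (85.2%) were called higher, against 12.4% of the 16518 such genes on the array. Their median log2 difference (*Rbpj* -/- minus *Rbpj* +/+) was 2.16, within a range from 0.34 to 3.0, while the median of the 16518 genes was -0.16. In 24 of the 27 (88.9%) every *Rbpj* -/- array lay above every *Rbpj* +/+ array, against 13.8% of the genes on the array.

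**Figure D1:**
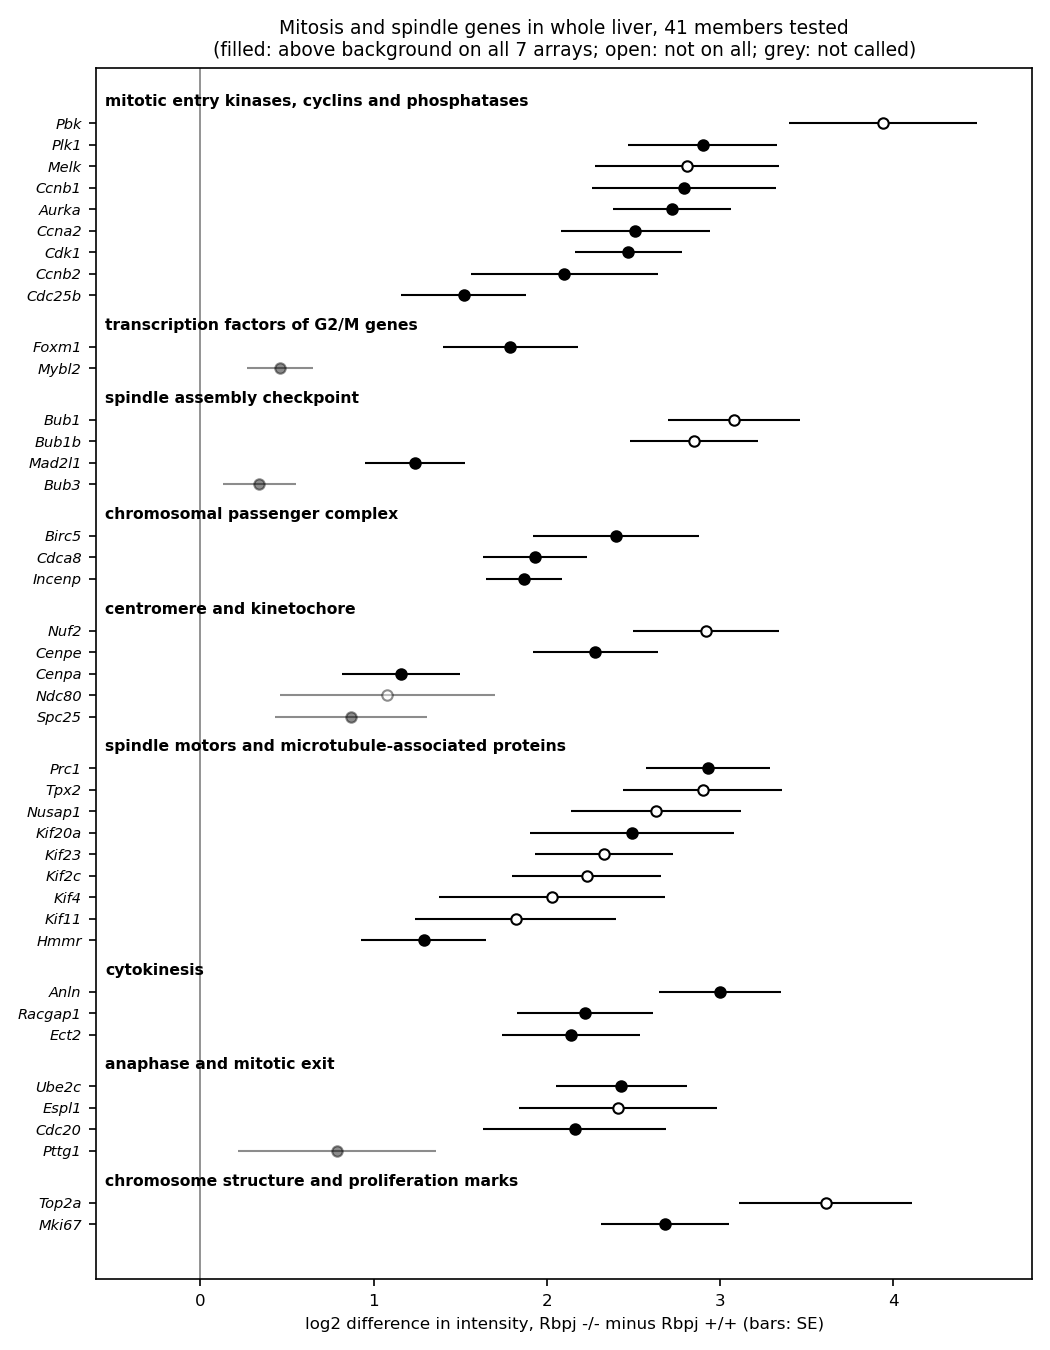
Log2 difference in intensity between 3 *Rbpj* -/- and 4 *Rbpj* +/+ livers for the 41 genes tested, grouped by role, with bars for the SE. All points lie to the right of 0, from 0.34 (*Bub3*) to 3.94 (*Pbk*), and the 5 grey points are the genes that were not called.

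The kinases, cyclins and phosphatases of mitotic entry rose together: 9 of 11 were tested and all 9 were called higher, with a median log2 difference of 2.72. Of all genes tested, 14.6% were called higher. Of the 9, 7 were well above background on all 7 arrays. *Pbk* and *Melk* were not, and had to be higher in *Rbpj* -/- to be tested. *Cdk1*, the kinase that drives mitosis, was at -0.01, -0.90, -1.36 and -0.91 in *Rbpj* +/+ and at 1.42, 1.67 and 1.93 in *Rbpj* -/-. The groups did not overlap, and the log2 difference was 2.47 ± 0.31 (SE), or 5.54-fold (adjusted p = 0.00175). Its probe lies at chr10:68801072-68801131 in mm9, the build of the array design, and exons and UTRs of that build were not analysed here. Its cyclin partner *Ccnb1* was at 0.08, -1.01, -2.38 and -0.76 in *Rbpj* +/+ and at 1.26, 1.61 and 2.45 in *Rbpj* -/-. The difference was 2.79 ± 0.53 (adjusted p = 0.00822), with array Rbpj +/+_1024 lowest and array Rbpj -/-_2866 highest. The other 2 *Ccnb1* probes are placed by the design on chromosome 7 while the gene is on chromosome 13, so their target is uncertain. They gave 1.86 and 2.10. The brightest probe of this group belonged to *Ccnb2*, a second mitotic B cyclin. It read 2.51, 1.72, 0.24 and 0.94 in *Rbpj* +/+ and 2.89, 3.15 and 4.31 in *Rbpj* -/-, so that the groups stood apart by the narrow gap between arrays Rbpj +/+_1155 and Rbpj -/-_N3. Its difference was 2.10 ± 0.54 (adjusted p = 0.025), and it was not called without the filter on dim probes (adjusted p = 0.163; 0.0112 to 0.163 over all alternatives run).

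*Pbk*, a mitotic kinase, had the largest difference of the 41 genes as scaled here, a rank that rests on dim *Rbpj* +/+ signal and did not hold with normexp background correction (1.48, below *Mki67* at 2.40 and *Prc1* at 2.38). It was at -2.06, -3.34, -4.58 and -2.90 in *Rbpj* +/+, where 2 of 4 arrays were well above background, and at -0.01, 1.08 and 1.09 in *Rbpj* -/-. The log2 difference was 3.94 ± 0.54 (adjusted p = 0.00237), or 15.4-fold. The polo-like kinase *Plk1* (2.90 ± 0.43), the spindle pole kinase *Aurka* (2.72 ± 0.34), the S and G2 cyclin *Ccna2* (2.51 ± 0.43) and the kinase *Melk* (2.81 ± 0.53) rose by similar amounts as scaled here. *Melk* was well above background on 2 of 4 *Rbpj* +/+ arrays. With normexp it differed by 0.66, less than *Plk1* (2.34), *Aurka* (2.27) and *Ccna2* (1.87). *Cdc25b*, a phosphatase that activates CDK1, had the smallest difference of the group as scaled here, 1.52 ± 0.36 (adjusted p = 0.0185). *Cdc25c*, a phosphatase of the same family, and *Plk4*, the kinase of centriole duplication, were not tested. *Cdc25c* was well above background on 0 of 4 *Rbpj* +/+ and 2 of 3 *Rbpj* -/- arrays, and its mean in *Rbpj* -/- was at least 1.41-fold higher than the lowest measurable level in *Rbpj* +/+. *Plk4* was well above background on 1 of 4 and 2 of 3 arrays.

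Of the 2 transcription factors of these genes, *Foxm1* was called and the brightest *Mybl2* probe was not; the difference between the 2 was not tested. *Foxm1* was at -1.16, -1.40, -2.18 and -2.36 in *Rbpj* +/+ and at -0.78, 0.36 and 0.46 in *Rbpj* -/-. All *Rbpj* -/- values were above the *Rbpj* +/+ values, and the difference was 1.79 ± 0.39 (adjusted p = 0.0142). A second *Foxm1* probe was near background except on array Rbpj +/+_1156, where it read -0.35 against values from -5.24 to -3.09 on the others. *Mybl2* has 3 probes. The brightest read -1.09, -0.82, -1.29 and -1.21 in *Rbpj* +/+ and -0.79, -0.56 and -0.57 in *Rbpj* -/-, which is a difference of 0.46 ± 0.19 (adjusted p = 0.111). Without array Rbpj +/+_1156 it was called (0.56, adjusted p = 0.0486; 0.0272 to 0.479 over all alternatives run). That probe is placed on chromosome 19, while the gene lies on chromosome 2. A probe on chromosome 2 was well above background on 0 of 4 *Rbpj* +/+ and 3 of 3 *Rbpj* -/- arrays and was at least 1.25-fold higher in *Rbpj* -/- (adjusted p = 0.0457). With the mean of its tested probes *Mybl2* was called (0.80, adjusted p = 0.0413). The third *Mybl2* probe was at background on all arrays.

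**Figure D2:**
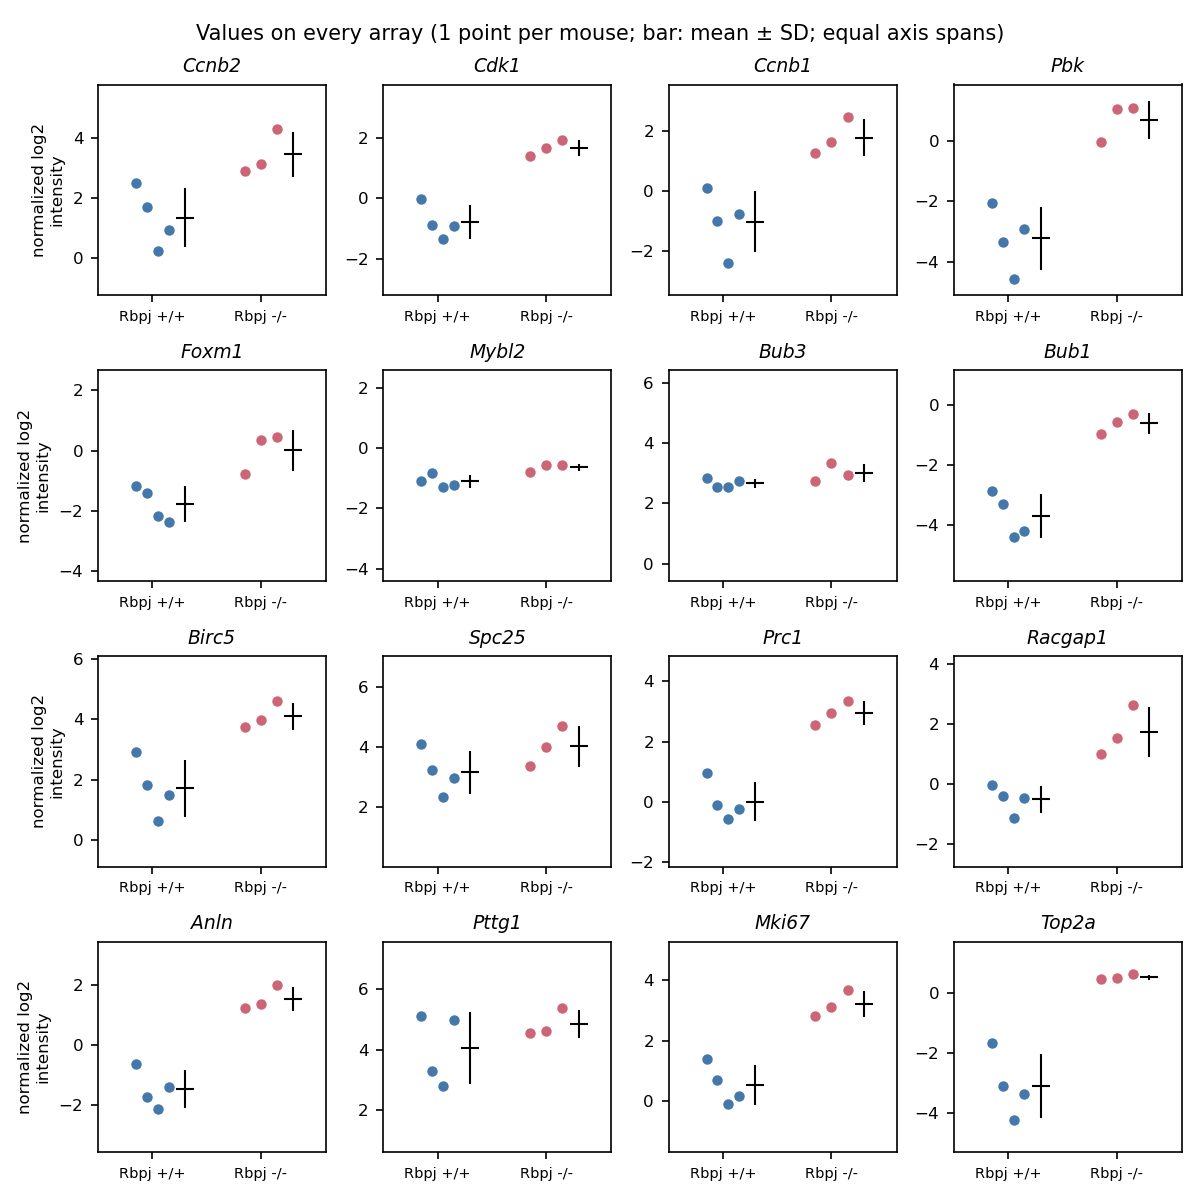
Normalized log2 intensity on every array for 16 genes, with 1 point per mouse (4 *Rbpj* +/+ in blue, 3 *Rbpj* -/- in red, in the array order of the text) and a bar for the mean ± SD, and the same axis span in every panel. The *Rbpj* -/- points lie above all *Rbpj* +/+ points except in the panels of *Bub3*, *Spc25* and *Pttg1*.

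Of the spindle assembly checkpoint, which holds anaphase back until all chromosomes are attached, 4 of 5 genes were tested and 3 were called higher. The checkpoint kinase *Bub1* was at -2.88, -3.3, -4.41 and -4.21 in *Rbpj* +/+, with 1 of 4 arrays well above background, and at -0.98, -0.58 and -0.31 in *Rbpj* -/-. The difference was 3.08 ± 0.38 (adjusted p = 0.00166). *Bub1b*, its relative and a part of the inhibitor of anaphase, rose by 2.85 ± 0.37, and *Mad2l1*, the core of that inhibitor, by 1.24 ± 0.29 (adjusted p = 0.0174). *Bub1b* was well above background on 2 of 4 *Rbpj* +/+ arrays. With normexp it differed by 0.92, less than *Mad2l1* (1.25). *Bub3*, the adaptor of both BUB proteins that cells also need outside mitosis, gave the smallest difference of the 41 genes as scaled here. It was at 2.84, 2.53, 2.55 and 2.75 in *Rbpj* +/+ and at 2.74, 3.33 and 2.95 in *Rbpj* -/-. Array Rbpj -/-_N3 lay inside the *Rbpj* +/+ range, and the difference of 0.34 ± 0.21 was not called (adjusted p = 0.257; 0.0335 to 0.625 over all alternatives run). It was called with normexp (0.59). The kinase *Ttk*, which recruits the checkpoint proteins, was not tested: it was well above background on 0 of 4 and 2 of 3 arrays, and at least 1.17-fold higher in *Rbpj* -/-.

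All 3 tested genes of the chromosomal passenger complex, which corrects faulty attachments and then moves to the midzone, rose. *Birc5* (survivin) was at 2.91, 1.82, 0.61 and 1.48 in *Rbpj* +/+ and at 3.73, 3.98 and 4.60 in *Rbpj* -/-, a difference of 2.40 ± 0.48 (adjusted p = 0.00995), and its other 2 probes gave 1.75 and 2.38. The scaffold *Incenp* differed by 1.87 ± 0.22 (adjusted p = 0.00129) and 1.89 on its 2 probes, with SDs of 0.31 in *Rbpj* +/+ and 0.16 in *Rbpj* -/- for the first. *Cdca8* (borealin) differed by 1.93 ± 0.30. The kinase of the complex, *Aurkb*, could not be followed: its probe was at background on 7 of 7 arrays, which gives no bound on its change.

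At the centromere and kinetochore the response as scaled here was uneven, with 3 of 5 tested genes called and differences from 0.87 to 2.92. The order of these genes changed with normexp. *Nuf2*, a subunit of the NDC80 complex that grips microtubules, rose by 2.92 ± 0.42 (adjusted p = 0.00281), the kinetochore motor *Cenpe* by 2.28 ± 0.36, and *Cenpa*, the histone that marks centromeres, by 1.16 ± 0.34 (adjusted p = 0.0408). *Nuf2* was well above background on 1 of 4 *Rbpj* +/+ arrays. With normexp it differed by 0.57, less than *Cenpe* (1.49) and *Cenpa* (0.85). *Cenpa* was not called without array Rbpj +/+_1024 (1.06, adjusted p = 0.107). *Spc25*, another subunit of the NDC80 complex, had the brightest probe of the group and read 4.09, 3.24, 2.34 and 2.98 in *Rbpj* +/+ and 3.36, 4.02 and 4.72 in *Rbpj* -/-. Array Rbpj +/+_1155 lay above 2 of the 3 *Rbpj* -/- arrays, and the difference of 0.87 ± 0.44 was not called (adjusted p = 0.178), but was without that array (1.18, adjusted p = 0.0674; 0.0674 to 0.482 over all alternatives run). *Spc25* was also called with array weights (1.04, adjusted p = 0.0896). With normexp it was called as well (1.01, adjusted p = 0.0893), with a larger difference than *Nuf2* and *Cenpa*. *Ndc80* itself differed by 1.08 ± 0.62 (adjusted p = 0.229), and its values spanned -3.76 to -0.83 in *Rbpj* +/+, with the highest on array Rbpj +/+_1156. Without that array the difference was 1.68 and was called (adjusted p = 0.017; 0.017 to 0.928 over all alternatives run). *Cenpf*, an outer kinetochore protein, was well above background on 1 of 4 and 1 of 3 arrays and was not tested.

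All 9 spindle motors and microtubule-associated proteins were tested and called higher, against 14.6% of all genes tested, with a median difference of 2.33. 6 of the 9 were not well above background on every *Rbpj* +/+ array. *Prc1*, which bundles the antiparallel microtubules of the midzone, had the brightest probe. It was at 0.95, -0.09, -0.58 and -0.24 in *Rbpj* +/+ and at 2.54, 2.94 and 3.34 in *Rbpj* -/-, and the wide gap between the groups gave 2.93 ± 0.36 (adjusted p = 0.00166). As scaled here, the spindle assembly factor *Tpx2* rose by 2.90 ± 0.46, the microtubule binder *Nusap1* by 2.63 ± 0.49, and the cytokinetic kinesins *Kif20a* and *Kif23* by 2.49 ± 0.59 and 2.33 ± 0.40. *Kif23* was well above background on 1 of 4 *Rbpj* +/+ arrays. With normexp it differed by 0.49, less than *Kif20a* (1.73), *Tpx2* (1.44) and *Nusap1* (1.30). *Kif2c*, a kinesin that takes microtubules apart, rose by 2.23 ± 0.43 but differed by only 0.05 (adjusted p = 0.805) with normexp background correction, and *Hmmr*, which anchors spindle poles, by 1.29 ± 0.36.

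The motor of spindle bipolarity, *Kif11*, and the chromosome-bound kinesin *Kif4* were the least secure calls of the 36. *Kif11* differed by 1.82 ± 0.58 (adjusted p = 0.0516) and was at -1.11 on array Rbpj +/+_1156, within the *Rbpj* -/- range of -1.19 to -0.71. Its call was lost when 1 array was left out, whether Rbpj +/+_1024 (1.61), Rbpj +/+_991 (1.46), Rbpj -/-_N3 (1.90), Rbpj -/-_N5 (1.90) or Rbpj -/-_2866 (1.66), with adjusted p from 0.103 to 0.141. Without both Rbpj +/+_1156 and Rbpj -/-_N3 its difference was 2.48 (adjusted p = 0.0157; 0.00392 to 0.244 over all alternatives run). *Kif4* differed by 2.03 ± 0.65 (adjusted p = 0.0538), by 1.42 without array Rbpj +/+_1024, and was not called without Rbpj -/-_N3 (2.03), Rbpj -/-_N5 (2.12) or Rbpj -/-_2866 (1.93).

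Cytokinesis was represented by 3 genes, all well above background on every array and all called. *Anln*, which ties actin and myosin to the cleavage furrow, was at -0.63, -1.72, -2.11 and -1.40 in *Rbpj* +/+ and at 1.24, 1.38 and 1.99 in *Rbpj* -/-. Its difference of 3.0 ± 0.35 (adjusted p = 0.0013) was the largest among the 27 genes measured on all arrays, though not with normexp, where it was 1.85. *Racgap1*, the RhoA regulator of the midzone, was at -0.04, -0.39, -1.11 and -0.45 in *Rbpj* +/+ and at 1.01, 1.53 and 2.63 in *Rbpj* -/-, a difference of 2.22 ± 0.39. A second *Racgap1* probe, placed on another chromosome than the gene, gave 2.35. *Ect2*, the RhoA activator that RACGAP1 recruits, rose by 2.14 ± 0.40.

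At anaphase and mitotic exit, 3 of 4 genes were called. *Ube2c*, the ubiquitin-conjugating enzyme of the anaphase-promoting complex, rose by 2.43 ± 0.38 and 2.89 ± 0.43 on its 2 probes. *Cdc20*, the activator of that complex, rose by 2.16 ± 0.53 (adjusted p = 0.0214), and by 1.56 without array Rbpj -/-_2866, where it read 4.85 against 2.77 and 3.31 on the other *Rbpj* -/- arrays. *Espl1*, the protease separase that cuts cohesin, differed by 2.41 ± 0.57 (adjusted p = 0.0192), with 1 of 4 *Rbpj* +/+ arrays well above background. Its inhibitor securin, *Pttg1*, stood apart from the group. It was at 5.13, 3.30, 2.79 and 4.99 in *Rbpj* +/+ and at 4.54, 4.62 and 5.38 in *Rbpj* -/-. On this probe the *Rbpj* +/+ livers fell into a high pair and a low pair that enclosed 2 of the 3 *Rbpj* -/- values. The second, dimmer probe did not show these pairs (-2.08, -2.45, -3.69 and -3.05 in *Rbpj* +/+). Neither the difference of 0.79 ± 0.57 (adjusted p = 0.34) nor that of the second probe, 0.57 ± 0.40 (adjusted p = 0.327), was called.

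The proliferation marker *Mki67*, the Ki-67 protein that coats mitotic chromosomes, was at 1.40, 0.68, -0.10 and 0.16 in *Rbpj* +/+ and at 2.82, 3.13 and 3.69 in *Rbpj* -/-. The lowest *Rbpj* -/- liver was above the highest *Rbpj* +/+ liver, and the difference was 2.68 ± 0.37 (6.40-fold, adjusted p = 0.00242; exact two-sided permutation p = 0.0286, the smallest that 35 splits of 7 arrays allow). Its probe lies at chr7:142881591-142881650 in mm9, and a second probe gave 2.15 ± 0.35. *Top2a*, the topoisomerase that untangles sister chromosomes, was at -1.65, -3.10, -4.21 and -3.37 in *Rbpj* +/+, with 1 of 4 arrays well above background, and at 0.47, 0.49 and 0.62 in *Rbpj* -/-. The *Rbpj* -/- livers were nearly alike (SD 0.08), and the difference was 3.61 ± 0.50 (adjusted p = 0.0024). For 9 of the 11 genes with more than 1 tested probe, every tested probe was called higher, the exceptions being *Mybl2* and *Pttg1*. One dim *Cdk1* probe went the other way: it was at -0.64 on array Rbpj +/+_1156 and between -4.88 and -3.40 on the other 6, was above background on no *Rbpj* -/- array and was not tested.

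The livers of 1 genotype also differed from each other in these genes. Among the 27 genes measured on all arrays, array Rbpj +/+_1155 was the highest of the *Rbpj* +/+ arrays for 25 and array Rbpj +/+_1024 the lowest for 23. Over all 16518 such genes, Rbpj +/+_1155 was the highest for 29.3% and Rbpj +/+_1024 the lowest for 10.4%. In *Rbpj* -/-, array Rbpj -/-_2866 was the highest for 25 of the 27 genes and array Rbpj -/-_N3 the lowest for 25, against 39.3% and 50.1% of all genes. The mean normalized log2 intensity over the 27 genes was 0.98, 0.23, -0.40 and 0.18 in *Rbpj* +/+ and 1.76, 2.12 and 2.81 in *Rbpj* -/-. The span within a genotype was thus wide, although the lowest *Rbpj* -/- liver stayed above the highest *Rbpj* +/+ liver. With quantile normalization the order of the 7 arrays by this mean was unchanged except that Rbpj +/+_991 (0.19) lay above Rbpj +/+_1156 (0.11).

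**Figure D3:**
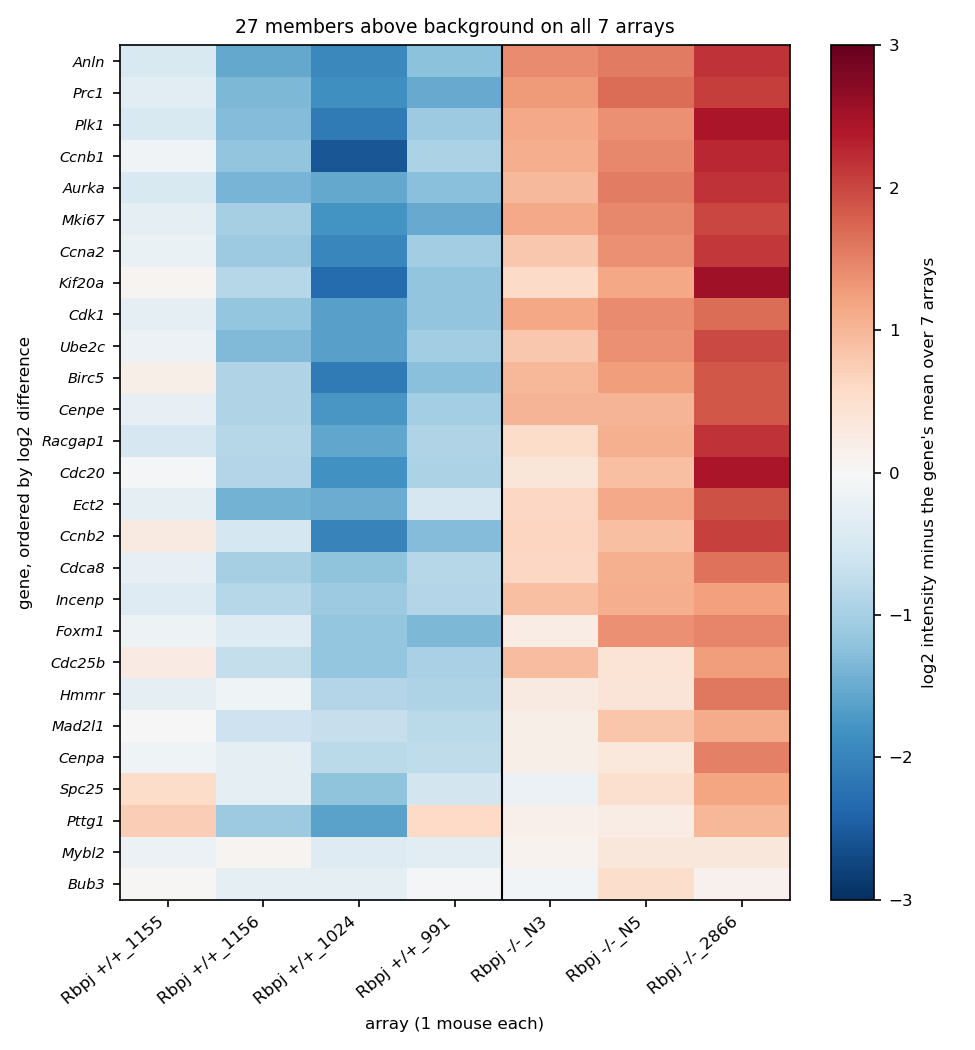
Log2 intensity of the 27 genes well above background on all 7 arrays, as the deviation from the mean of each gene over the arrays (red above, blue below), with 1 column per mouse and genes ordered by their log2 difference. Array Rbpj +/+_1155 is the palest of the 4 *Rbpj* +/+ columns, Rbpj +/+_1024 the deepest blue and Rbpj -/-_2866 the deepest red, and the last rows (*Pttg1*, *Mybl2*, *Bub3*) show little separation.

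Some red cell genes shared the extremes of this order, chosen here after their values were seen. *Hba-a1*, an alpha globin gene, was at 8.74, 8.29, 7.45 and 7.39 in *Rbpj* +/+ and at 6.43, 8.09 and 8.55 in *Rbpj* -/-. The band 3 gene *Slc4a1* was at 2.0, 0.11, -0.69 and -0.88 and at -0.76, 0.12 and 1.47. Array Rbpj +/+_1155 was the highest *Rbpj* +/+ array and Rbpj -/-_2866 the highest *Rbpj* -/- array in both, as for the mitosis genes. The lowest *Rbpj* +/+ array of both was Rbpj +/+_991 and not Rbpj +/+_1024. *Hbb-b1* (5.2, 4.17, 3.21 and 3.37, then 3.03, 4.96 and 5.06) matched the mitosis genes at both ends in both genotypes. So did *Ahsp* (0.77, -1.54, -3.91 and -3.56, then -3.08, -2.68 and -0.13), with 2 of 4 *Rbpj* +/+ arrays well above background. The remaining tested erythroid markers did not follow in *Rbpj* +/+: *Epor* was lowest on Rbpj +/+_1155 (-0.18), *Alas2* was highest on Rbpj +/+_991 (6.01) and *Klf1* on Rbpj +/+_1156 (-1.29). In *Rbpj* -/- they were highest on Rbpj -/-_2866 (-0.12, 4.41 and -1.32). *Alas2* was lowest there on Rbpj -/-_N3 (2.29), but *Epor* and *Klf1* on Rbpj -/-_N5 (-0.5 and -2.32). Between genotypes the erythroid markers did not move with the mitosis genes. Of 7 tested (12 listed), 0 were called higher by limma, none of them at an unadjusted p below 0.05 either. 1 was called lower, *Alas2*, by 2.13 on the log2 scale. The summed erythroid level, as intensity relative to the 75th percentile, ranged from 230 to 522 in *Rbpj* +/+ and from 101 to 434 in *Rbpj* -/-. The part of blood-forming cells in the mitosis genes was not tested.

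Markers of other liver cells differed between the genotypes in the same samples, to be read against the 14.6% of all genes called higher and 19.6% called lower. Of macrophage markers, 8 of 9 were called higher, and their summed level was 77.0 to 102 in *Rbpj* +/+ and 271 to 361 in *Rbpj* -/-. Stellate cell and fibroblast markers rose for 6 of 8 tested (133 to 204 against 253 to 312), neutrophil markers for 3 of 8 with 1 lower (6.33 to 25.4 against 34.0 to 71.1), and endothelial markers for 3 of 8 with 1 lower (55.5 to 80.7 against 86.3 to 135). Of 6 tested cholangiocyte markers 2 rose (3.69 to 4.30 against 4.74 to 11.5), and the duct keratins *Krt19* (0.25, adjusted p = 0.532) and *Krt7* (-0.45, adjusted p = 0.656) were not called. Hepatocyte markers were lower for 8 of 10 (5450 to 7410 against 3890 to 4260) and B cell markers for 4 of 5 (3.03 to 5.50 against 1.64 to 2.46) while the 2 of 7 T and NK cell markers called lower are near the share of all genes (32.2 to 43.9 against 13.3 to 21.3). The listed markers *Des*, *Epcam*, *Tspan8*, *Pax5*, *Cd8a* and *Klrb1c* were not tested for want of signal. The *Alb*, *Ttr* and *Apoa1* probes were well above background on every array, as the label of whole liver asks. Which cells carried the mitosis messages was not tested.

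Other genes of cell division were read from 7 further lists of 163 genes, none of them among the 46. Of 153 tested, 91 were called higher and 7 lower, where 14.6% and 19.6% of all genes tested were called higher and lower. Over the 110 of them that were well above background on all 7 arrays, which leaves out those that could enter through *Rbpj* -/- alone, 55 were called higher and 7 lower, against 12.4% and 20.8% of such genes on the array. The counts of each list are given over these genes. Among condensin subunits, which compact chromosomes, 5 of 6 rose (median log2 difference 1.49). The largest difference of the list was that of *Ncapg2* (2.52 ± 0.31), which was above background on 3 of 4 *Rbpj* +/+ arrays, followed by *Smc2* (1.99 ± 0.25). Among other centromere and kinetochore genes 10 of 20 rose (median 0.64). *Ska1* of the SKA complex, with 1 of 4 *Rbpj* +/+ arrays above background, differed by 3.12 ± 0.55. Other spindle, kinesin and cytokinesis genes rose for 9 of 16 (median 0.89). *Fam83d* (3.11 ± 0.50) and *Iqgap3* (3.02 ± 0.40) were above background on 1 and 3 of the 4 *Rbpj* +/+ arrays. Other mitotic kinases and their partners rose for 6 of 8 (median 1.08). *Mastl* (3.14 ± 0.41), the Greatwall kinase, and *Wee1* (2.46 ± 0.59), an inhibitor of CDK1, were above background on 1 and 3 of the 4 *Rbpj* +/+ arrays, while *Aurkaip1* was lower by 0.75 (adjusted p = 0.0408).

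Of the 15 genes of the anaphase-promoting complex and its regulators, 1 rose and 3 fell, which for the falls is near the share of all genes. The median over all 16 tested was 0.02. The inhibitor *Fbxo5* rose by 0.87 ± 0.32 (adjusted p = 0.0801), and the subunits *Cdc27*, *Anapc13* and *Anapc2* fell by 0.62, 0.58 and 0.50. Of 17 DREAM and E2F regulators, 3 were higher and 2 lower (median -0.17), shares near those of all genes. *Rbl1*, a pocket protein of DREAM above background on 3 of 4 *Rbpj* +/+ arrays, rose by 2.15 ± 0.31 and the activator *E2f1* by 1.46 ± 0.20, while *E2f7*, a repressor of E2F targets, fell by 1.14 and the chromatin subunit *Rbbp4* by 1.05. S phase genes, which act before mitosis, rose for 21 of 28 with 1 lower. *Uhrf1*, the maintenance factor of DNA methylation, rose by 3.3 ± 0.40, and the probe read for *Mcm10*, a replication initiation factor, went down by 3.13 (adjusted p = 0.000951) from 4.79 ± 0.05 (SD, n = 4) to 1.66 ± 0.83 (SD, n = 3). The placement of this probe was not checked, and *Mcm2* to *Mcm7* went the other way, by 0.71 to 2.63. The median of the S phase genes was 1.20, beside 23 of 27 with a median of 2.16 for the mitosis genes. The difference between these lists was not tested.

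**Figure D4:**
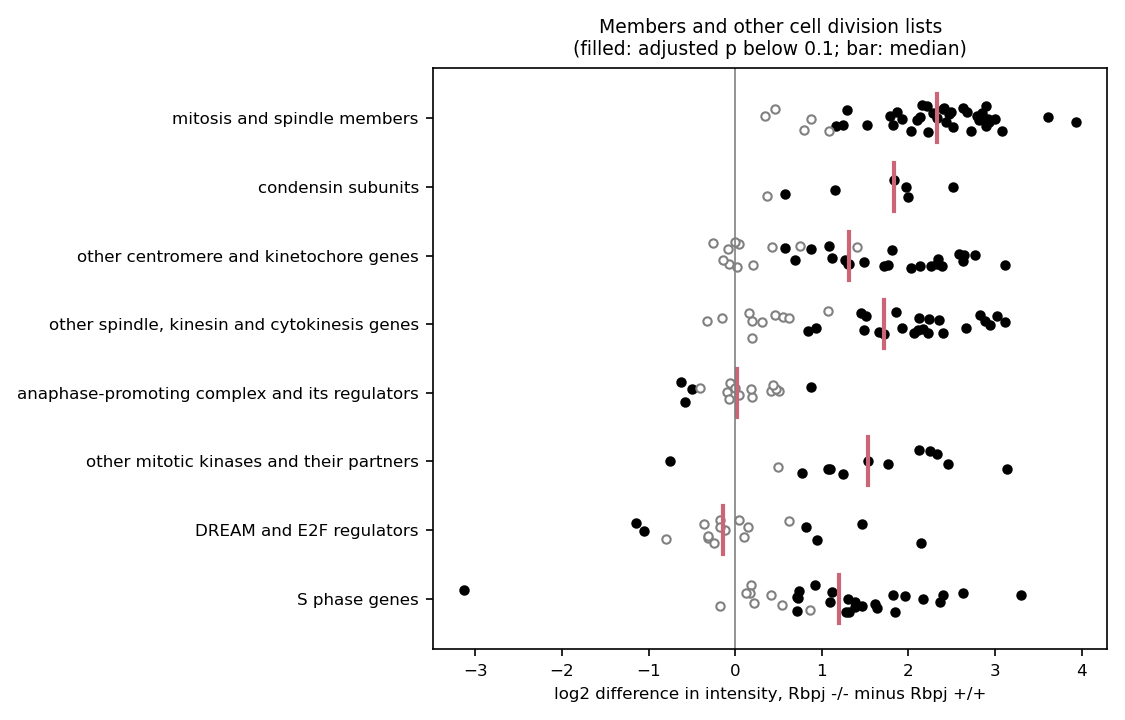
Log2 difference in intensity (*Rbpj* -/- minus *Rbpj* +/+) for the tested mitosis and spindle genes and for the genes of 7 other cell division lists, with 1 point per gene, filled where the adjusted p was below 0.1, and a bar at the median. Most lists lie to the right of 0, while the anaphase-promoting complex (median 0.02) and the DREAM and E2F regulators (median -0.14) are spread around it.

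The promoter letters could be set beside the response for 23 of the 27 genes measured on all arrays. Of 16 genes with TTTGAA, 14 were called higher, with a median log2 difference of 2.19 and a range from 0.34 to 3.0. Of 7 genes without it, 5 were called, with a median of 1.52 and a range from 0.46 to 2.79. The lowest, *Mybl2*, was not called and was read from a probe placed on another chromosome than the gene. Its dimmer probe on chromosome 2 was called. Both ranges are wide: *Bub3*, whose stretch is printed above with both elements, had the lowest value of the first set, and *Ccnb1*, with CCAAT but no TTTGAA in its window, the highest of the second. The 2 sets were not tested against each other.

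Of the alternatives run, the background correction moved these differences most often. With normexp background correction, which pulls dim values together, the median of the 27 genes was 1.73 (median of all such genes -0.05, against -0.16 above), with 25 of 27 called. Of the 36 called genes, 23 moved by more than 1.5-fold under it, by 0.62 to 2.46 on the log2 scale and all downwards. *Pbk* was then at 1.48, *Top2a* at 1.19 and *Bub1* at 0.69, still called, and *Espl1* (0.25), *Kif11* (0.27) and *Kif2c* (0.05) were no longer called. The 14 genes not well above background on every array then lay between 0.03 and 1.48.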

How the data were processed

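The authors scanned 1-colour whole-genome arrays of 7 livers and extracted spot intensities with Agilent Feature Extraction 10.7.3.1 (version per the submitters' processing notes). The deposited intensity values of each array are background-subtracted signals without normalization between arrays. The deposited series matrix holds log2 values that the authors normalized, and served as an alternative. Control spots and spots marked non-uniform or population outlier (compromised spots) were left out (146 probe values of 55681 probes on 7 arrays), and no spot was saturated. Duplicate spots were combined as the mean of their log2 values, from which the 75th percentile of the array was taken off. The authors' methods name a shrinkage t test, which was not available, so limma 3.58.1 (R 4.3.3) was used, with Benjamini-Hochberg adjustment over 24536 tested probes and a threshold of 0.1. In simulated data, 122 of 200 probes shifted by 1.5 (log2) were recovered among 24500, with 13 false calls. Where no array of a genotype was well above background, a fold is a lower bound against the lowest signal well above background on each array. The number of arrays limits the precision. Members, gene lists and tests were chosen with earlier results of these data known. Values on every array are given for the member with the brightest probe of each role, the 5 largest and 3 smallest differences, *Mki67*, *Top2a*, *Cdk1*, *Ccnb1* and *Foxm1*. In other lists the 2 largest called changes are named, and further ones after their values were seen. Some genes that this rule covers are not reported here. Other symbols were matched through RefSeq. The alternatives were normexp, quantile and another percentile scaling, 2 filters, compromised spots kept, array weights, limma-trend, a stricter threshold (0.05), the mean over probes, the series matrix and each array left out. Leaving out Rbpj +/+_1156 and Rbpj -/-_N3 together and using own-chromosome probes were added after the data were seen. Tables and figures were made with Python 3.11.15, pandas 2.3.3 and matplotlib 3.10.9.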

Additional observations from a re-analysis of the deposited data

How the results depend on the processing

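The count of mitosis and spindle genes called higher was 36, stayed between 34 and 39 where the filter was unchanged, and no gene was called lower under any alternative run. It was 23 of 27 when detection on all 7 arrays was required and 25 of 46 without a filter on dim probes, all of them among the 36. The 11 calls lost without that filter were *Ccnb2*, *Cdc20*, *Cdc25b*, *Cenpa*, *Espl1*, *Foxm1*, *Hmmr*, *Kif11*, *Kif20a*, *Kif4* and *Mad2l1* (adjusted p from 0.118 to 0.25). The median log2 difference of 2.33 fell to 1.25 with normexp and lay between 2.03 and 2.58 when 1 array was left out, with 34 to 38 genes called. For other cell division genes, 91 calls became 45 without a filter and 57 with detection on all 7 arrays, and 74 to 92 with 1 array left out. None of 724 single values reversed, and 24 lost and 12 gained their call. *Ccnb1* was lost in the series matrix (1.99, adjusted p = 0.112; 0.00109 to 0.112 over all alternatives run). The slide as a block was not run, since all arrays share 1 slide. No paired analysis was possible because the labels give the genotypes no shared replicate numbers. The cause of these shifts was not tested. Dim signal limits *Aurkb*, *Cdc25c*, *Cenpf*, *Plk4* and *Ttk*, which could not be tested.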
